A study of Mus musculus with 8 samples.

Results

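The collagen genes are described here as they were measured on arrays of whole mouse uterus, with 4 sham and 4 exposed animals. Members were all probe sets whose symbol in the platform annotation has the form Col, number, a, number, 1 probe set per gene, which gave 42 genes of the 19505 genes with a symbol. Every mouse was a wildtype C57BL/6J female, an inbred strain, mated to a vasectomized male, so that all 8 uteri were pseudopregnant and held no embryo. The exposed mice (ecig in the labels) inhaled aerosol of propylene glycol and vegetable glycerin in a 55:45 ratio with 24 mg/mL nicotine, in daily sessions of 3 hours with 2 puffs each minute. Priming ran for 4 weeks, 5 days a week, before mating, and exposure went on each day until the morning of day 4.5, counted from a plug at day 0.5. The sham mice breathed room air. No group received the aerosol vehicle without nicotine, so the agents of the mixture cannot be told apart, and the sources used here do not give the age of the animals.

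Collagens are secreted proteins whose chains wind into a triple helix, which requires glycine at regular positions. Fibrillar collagens build the tensile cables of connective tissue, type IV collagen forms the sheet of basement membranes under epithelia, around muscle cells and around vessels, and type VI collagen makes beaded filaments beside cells. In the uterus, fibroblasts of the stroma and smooth muscle cells of the myometrium are the main sources of fibrillar collagen, and the matrix of the stroma is remodelled around implantation.

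Values are log2 expression, so a difference of 1 is a doubling. Group means carry the SD over their 4 mice. Levels of different genes are not ranked, because probe sets differ in how strongly they bind. As a position on the array, 23 of the 42 genes lay above the array median of 7.08 in every mouse, 15 had a mean above the upper quartile of 8.35 and 3 a mean below the lower quartile of 5.47. All 8 uterine identity genes listed, Pgr and Hoxa10 among them, lay above the array median in every mouse. None of 8 cartilage and bone markers and none of 7 fat cell markers did so. The mean correlation of an array with the other 7 lay between 0.986 and 0.987 in 6 mice and was 0.982 in exposed mouse 2 and 0.977 in exposed mouse 4. By this correlation these 2 mice stood apart over the whole array, and differences without them are given beside many of the values. Exposed mouse 1 was not set apart by it. That mouse had the lowest value for 13.9% of all genes, against 13.5% for exposed mouse 2 and 20.9% for exposed mouse 4.

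The collagen genes with the largest negative differences were Col1a1, Col1a2, Col3a1, Col5a1, Col5a2 and Col11a1 among the fibrillar types, Col4a1, Col4a2, Col15a1 and Col18a1 of basement membranes, and Col6a1, Col6a2 and Col6a3. Their differences ran from -0.20 to -0.62 log2 units. Across all 42 genes, 27 had a lower mean after exposure (64.3%, against 50.2% of all genes) and 15 a higher one, and the median difference was -0.031, against -0.000542 over all genes. The median was -0.20 for 11 fibrillar genes, -0.18 for 8 genes of type IV and the basement membrane zone and -0.0059 for the other 23. Without exposed mouse 1 these medians were -0.27, -0.20 and 0.0095. With single mice left out, the count of genes with a lower mean depended on the mouse. It ran from 18 of 42 without sham mouse 3 (42.9%, family median 0.01) to 32 without exposed mouse 4 (76.2%, family median -0.092). The share of all genes with a lower mean was not counted in those settings. In whole tissue, fewer cells of a type and less RNA per cell cannot be told apart.

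With p-values adjusted across the array by the Benjamini-Hochberg method, limma called 0 collagen genes and 0% of the 19505 genes. At an unadjusted p under 0.05, 3 collagen genes had lower means (7.14%, against a background of 2.58% of all genes) and 0 had higher means (background 2.98%). The 3 genes were Col4a1, Col6a2 and Col6a3. This count was 0 without exposed mouse 2, exposed mouse 4 or sham mouse 1 (backgrounds of 1.78%, 1.67% and 1.8%) and 1 without sham mouse 2 or sham mouse 3 (1.47% and 1.95%). A count of 0 or 1 in 42 is near those shares. It was 5 without exposed mouse 3 or sham mouse 4 (3.55% and 2.47%) and 6 without exposed mouse 1 (6.32%). Without exposed mice 2 and 4 together it was 0 (background 1.83%). The median difference was then 0.013 for the fibrillar genes and -0.034 for type IV and the basement membrane zone. It was -0.068 for the other collagen genes, against -0.0059 with all mice. Over the whole family, 27 of 42 genes still had a lower mean, with a median of -0.058 against -0.031 with all mice. The share of all genes with a lower mean was not counted in that setting. With all mice kept, the exposed values all lay below the sham values for 2 collagen genes, Col4a1 and Col4a2 (4.76%, against a background of 1.38%). They all lay above the sham values for 0 (background 1.39%).

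**Figure D1:**
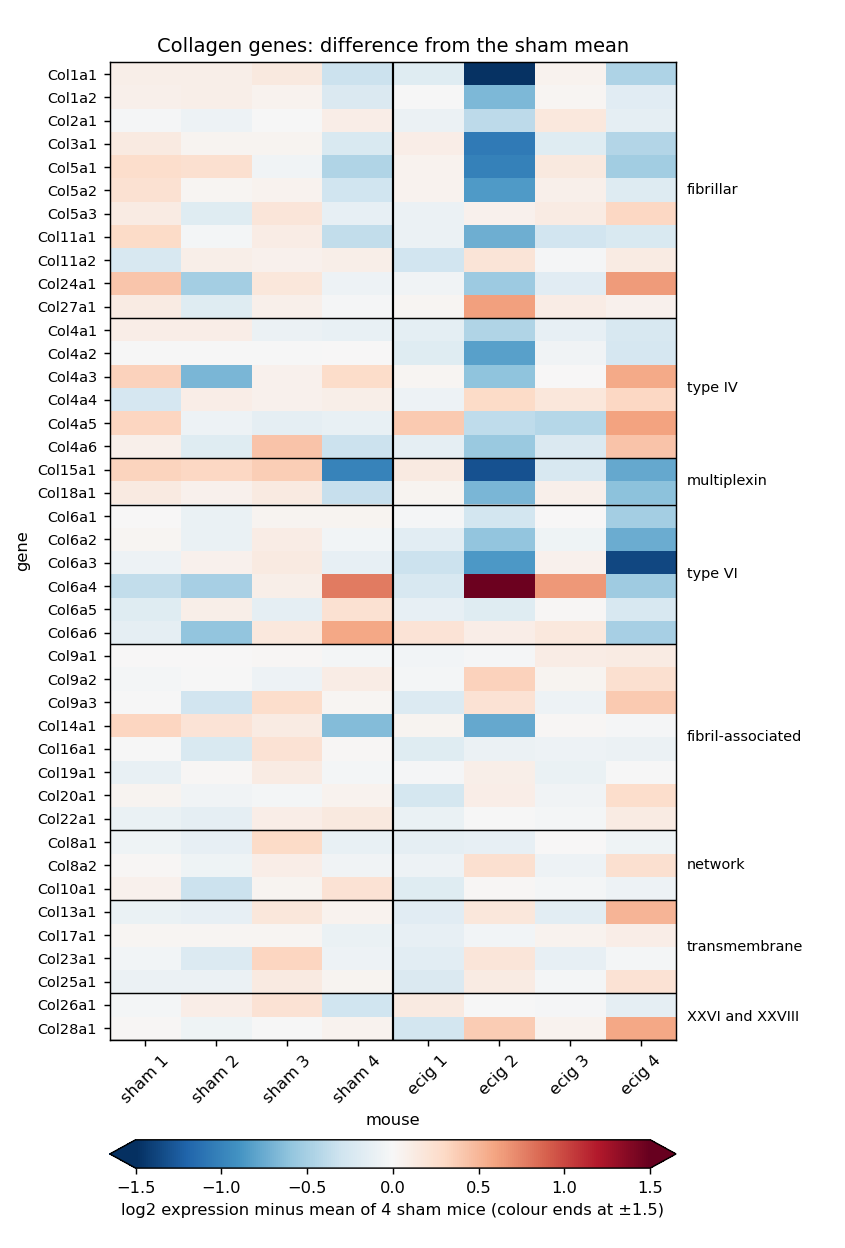
Difference of each mouse from the mean of the 4 sham mice, in log2 units, for the 42 collagen genes (rows, grouped by class) and the 8 mice (columns, sham left of the line and ecig right of it). Blue cells gather in ecig 2 for Col1a1, Col3a1, Col5a1 and Col5a2, in sham 4, ecig 2 and ecig 4 for Col15a1, in sham 4 and ecig 2 for Col14a1, and in ecig 2 and ecig 4 for Col6a2 and Col6a3.

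Types I, III and V form the mixed fibrils of soft tissue. Col1a1, the α1 chain of type I collagen, read 11.52, 11.52, 11.57 and 11.10 in sham mice 1 to 4, and 11.24, 9.95, 11.48 and 10.97 in exposed mice 1 to 4. Exposed mouse 2 was far below the rest, exposed mouse 4 and sham mouse 4 were next, and the groups overlapped. The means were 11.43 ± 0.22 and 10.91 ± 0.67, a difference of -0.52 ± 0.28 (SE, limma unadjusted p = 0.0969, adjusted p = 0.838). Without exposed mouse 2 the difference was -0.20, and without exposed mice 2 and 4 it was -0.067.

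Col1a2, which encodes the partner α2 chain, read 11.38, 11.39, 11.35 and 11.09 in sham and 11.30, 10.63, 11.33 and 11.13 in exposed mice. The order of the mice was nearly that of Col1a1, with exposed mouse 2 lowest and sham mouse 4 second lowest. The difference of -0.20 ± 0.16 (SE) was less than the spread among exposed mice (SD 0.33), and it was -0.047 without exposed mouse 2 and 0.013 without exposed mice 2 and 4.

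Col3a1, the single chain of type III collagen, read 12.27, 12.18, 12.18 and 11.91 in sham and 12.24, 11.08, 11.95 and 11.69 in exposed mice. Exposed mice 2 and 4 were the lowest pair, and sham mouse 4 lay just below exposed mouse 3. The difference was -0.39 ± 0.21 (SE, limma unadjusted p = 0.0937, adjusted p = 0.838). It was -0.56 without exposed mouse 1, -0.17 without exposed mouse 2 and -0.04 without exposed mice 2 and 4.

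The promoters of Col1a2 and Col3a1 are shown because the RNAs were low in the same mice, while the sequences before their starts differ in composition. Each line gives the last 120 bases before the gene's annotated span on its own strand, 5′ to 3′, from RefSeq on build GRCm38.p6. The first lies at chr6:4505498-4505617 on the plus strand and the second at chr1:45311418-45311537 on the plus strand. Capitals mark CCTCCC in the first and TATAAA in the second.
Col1a2: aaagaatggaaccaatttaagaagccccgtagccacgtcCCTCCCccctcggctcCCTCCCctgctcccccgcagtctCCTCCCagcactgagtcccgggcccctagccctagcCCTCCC
Col3a1: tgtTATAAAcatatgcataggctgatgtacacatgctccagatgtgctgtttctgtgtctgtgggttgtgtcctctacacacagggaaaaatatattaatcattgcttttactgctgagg
CCTCCC occurs 4 times in the Col1a2 stretch, which is 65.8% G and C, and the Col3a1 stretch is 40% G and C. These are matches of letters and not sites of a factor.

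Col5a1 and Col5a2 encode the chains of type V collagen, which starts fibrils and limits their width. Col5a1 read 8.30, 8.27, 7.98 and 7.58 in sham and 8.09, 7.02, 8.18 and 7.51 in exposed mice. Col5a2 read 8.84, 8.64, 8.66 and 8.31 in sham and 8.67, 7.76, 8.69 and 8.42 in exposed mice. Both were lowest in exposed mouse 2, with exposed mouse 4 and sham mouse 4 the next lowest. Their differences were -0.33 ± 0.26 and -0.23 ± 0.20 (SE), and turned to 0.10 and 0.068 without exposed mice 2 and 4.

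Col11a1, a chain of type XI collagen that is related to type V, had the smallest p of the fibrillar genes. It read 7.39, 7.07, 7.22 and 6.74 in sham and 7.02, 6.37, 6.82 and 6.88 in exposed mice, and the groups overlapped through sham mouse 4. The difference was -0.33 ± 0.17 (SE, limma unadjusted p = 0.08, adjusted p = 0.838), -0.20 without exposed mouse 2 and -0.18 without exposed mice 2 and 4.

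Of the remaining 5 fibrillar genes, Col2a1 and Col24a1 were also lowest in exposed mouse 2, and Col5a3, Col11a2 and Col27a1 were not. Col2a1, the collagen of cartilage, had means of 6.31 ± 0.077 and 6.19 ± 0.22 in sham and exposed mice. Differences were 0.11 ± 0.12 (SE) for Col5a3, 0.0028 ± 0.13 for Col11a2, -0.029 ± 0.26 for Col24a1 and 0.20 ± 0.14 for Col27a1. Col27a1 was highest in exposed mouse 2, at 7.83 against 7.03 to 7.33 in the other 7 mice. Of the 11 fibrillar genes, 8 had their lowest value in exposed mouse 2, against 13.5% of all genes.

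**Figure D2:**
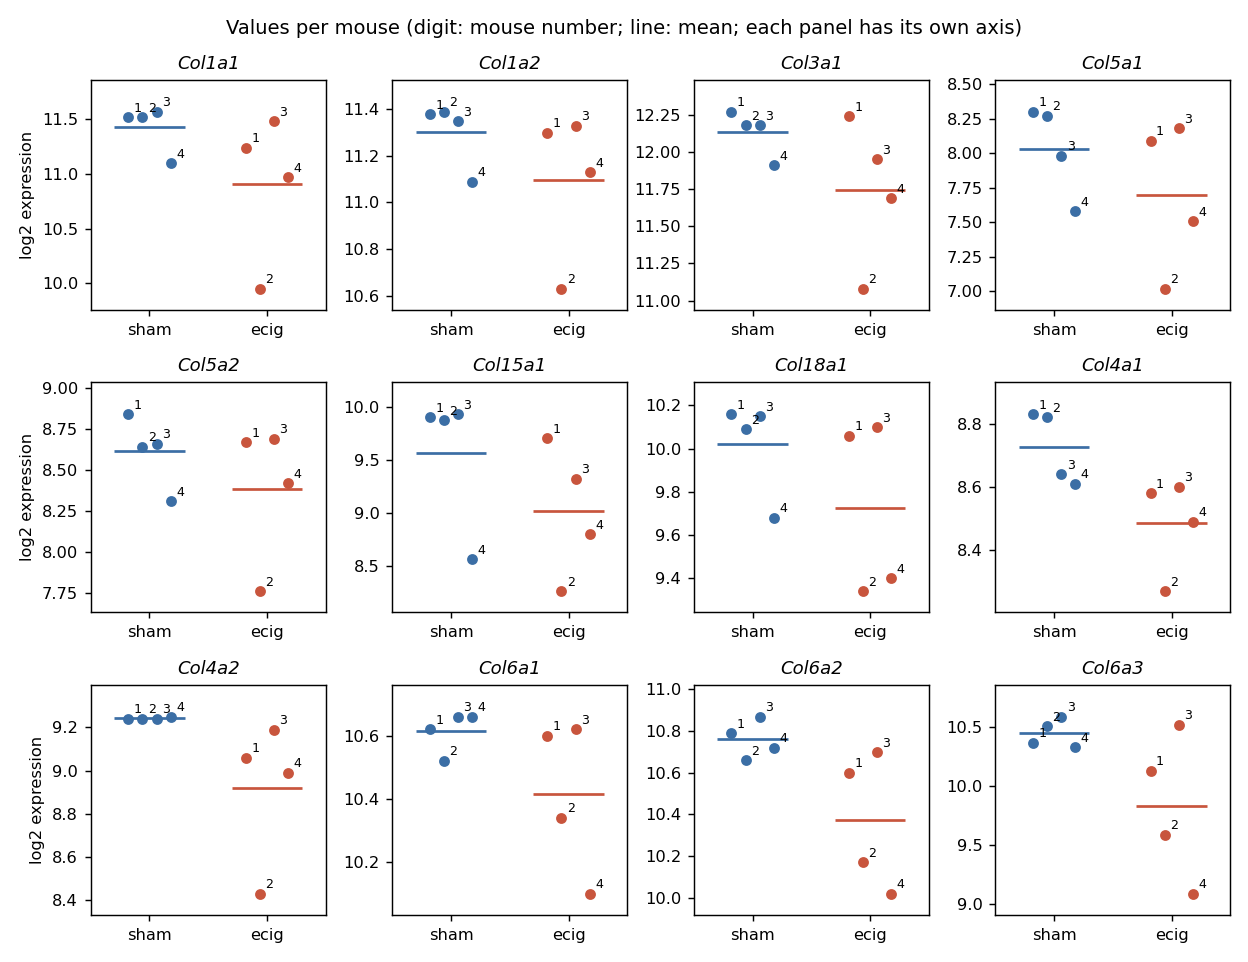
Log2 expression in each mouse for 12 collagen genes, sham in blue and ecig in red, with the mouse number beside each point and a line at the group mean. Each panel has its own axis, which does not start at 0. Mouse ecig 2 lies lowest in the panels of types I, III, V, XV, XVIII and IV, and mouse ecig 4 lowest in those of type VI.

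Type IV collagen is made from 6 genes arranged as 3 head-to-head pairs. Col4a1 and Col4a2 encode the chains found in nearly all basement membranes, and the other 4 encode chains of restricted tissues. Col4a1 read 8.83, 8.82, 8.64 and 8.61 in sham and 8.58, 8.27, 8.60 and 8.49 in exposed mice. All exposed values were below all sham values, but exposed mouse 3 lay only just below sham mouse 4. The difference was -0.24 ± 0.10 (SE, 1.18-fold, limma unadjusted p = 0.0399, adjusted p = 0.838). It ranged from -0.28 to -0.17 when single mice were left out and was -0.14 without exposed mice 2 and 4.

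Col4a2 read 9.24, 9.24, 9.24 and 9.25 in sham and 9.06, 8.43, 9.19 and 8.99 in exposed mice. The sham mice were nearly identical (SD 0.0073), and again every exposed value lay below every sham value. The difference was -0.32 ± 0.15 (SE, 1.25-fold, limma unadjusted p = 0.0538, adjusted p = 0.838), -0.16 without exposed mouse 2 and -0.12 without exposed mice 2 and 4.

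The starts of these 2 genes are shown because both RNAs had non-overlapping groups. On chromosome 8 of GRCm38.p6 the RefSeq starts used here, of Col4a2 on the plus strand and of Col4a1 on the minus strand, bound a stretch of 22 bases in which both gene models overlap. The stretch at chr8:11312805-11312826 is given on the plus strand, with the first base of Col4a2 as the left capital and the first base of Col4a1, on the opposite strand, as the right capital.
Col4a2 to Col4a1: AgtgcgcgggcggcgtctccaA

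The other type IV chains differed by 0.0014 ± 0.27 (SE) for Col4a3, 0.17 ± 0.12 for Col4a4, 0.047 ± 0.23 for Col4a5 and -0.12 ± 0.21 for Col4a6. Within groups they varied more than Col4a1, Col4a3 running from 5.93 to 6.95 in sham mice. Col4a5 and Col4a6 were both high in exposed mouse 4, at 8.07 and 8.44, where Col4a1 and Col4a2 lay below every sham mouse.

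Col15a1 and Col18a1 encode multiplexins, collagens of the basement membrane zone, and the C-terminal end of the Col18a1 product is released as endostatin. Col15a1 read 9.90, 9.87, 9.93 and 8.56 in sham and 9.70, 8.26, 9.32 and 8.80 in exposed mice. Sham mouse 4 and exposed mice 2 and 4 were below the other 5, so low values occurred in both groups. The difference was -0.54 ± 0.36 (SE, limma unadjusted p = 0.162, adjusted p = 0.841). It was -0.88 without sham mouse 4 (unadjusted p = 0.0131 in limma), -0.29 without exposed mouse 2 and -0.054 without exposed mice 2 and 4.

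Col18a1 read 10.16, 10.09, 10.15 and 9.68 in sham and 10.06, 9.34, 10.10 and 9.40 in exposed mice. The same 3 mice were low, and exposed mice 1 and 3 lay within the range of the sham mice. The difference was -0.29 ± 0.20 (SE), and 0.064 without exposed mice 2 and 4.

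Type VI collagen is assembled from the products of Col6a1, Col6a2 and one longer chain, most often that of Col6a3. Col6a1 read 10.62, 10.52, 10.66 and 10.66 in sham and 10.60, 10.34, 10.62 and 10.10 in exposed mice. Exposed mice 4 and 2 were the low pair and sham mouse 4 was not low, unlike for Col1a1, Col3a1 and Col15a1. The difference was -0.20 ± 0.12 (SE, limma unadjusted p = 0.131), -0.096 without exposed mouse 4 and -0.0065 without exposed mice 2 and 4.

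Col6a2 read 10.79, 10.66, 10.87 and 10.72 in sham and 10.60, 10.17, 10.70 and 10.02 in exposed mice. The groups overlapped only through exposed mouse 3, above sham mouse 2. The difference was -0.39 ± 0.15 (SE, 1.31-fold), with the smallest p of all 42 genes (limma unadjusted p = 0.0289, adjusted p = 0.838), -0.27 without exposed mouse 4 and -0.11 without exposed mice 2 and 4.

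Col6a3 read 10.37, 10.51, 10.59 and 10.33 in sham and 10.13, 9.59, 10.52 and 9.09 in exposed mice. Exposed mice 4, 2 and 1 lay below every sham mouse, mouse 1 by the least, while exposed mouse 3 lay among the sham mice. The difference of -0.62 ± 0.26 (SE, 1.53-fold, limma unadjusted p = 0.0372, adjusted p = 0.838) had the largest size of the 42. With single mice left out it ran from -0.85 without exposed mouse 3 to -0.37 without exposed mouse 4. Without exposed mice 2 and 4 it was -0.12.

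The stretches before Col6a1 and Col6a3 are shown because both RNAs were lowest in exposed mouse 4 although the genes lie on different chromosomes. They are the 120 bases before each gene's RefSeq span, at chr10:76726045-76726164 and chr1:90844002-90844121, both on the minus strand of GRCm38.p6 and written 5′ to 3′ from RefSeq. Capitals mark CCTCCC or its reverse complement GGGAGG, overlapping matches included. For Col6a3 the start listed with the promoter sequences, base 90843971, lies inside that span.
Col6a1: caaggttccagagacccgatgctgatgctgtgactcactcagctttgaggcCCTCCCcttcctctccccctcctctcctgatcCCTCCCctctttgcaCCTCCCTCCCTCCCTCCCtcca
Col6a3: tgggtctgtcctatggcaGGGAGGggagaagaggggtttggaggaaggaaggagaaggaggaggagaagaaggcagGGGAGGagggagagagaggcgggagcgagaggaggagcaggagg
The Col6a1 stretch holds 6 matches and the Col6a3 stretch 2. In the 250 bases before each start, CCTCCC on either strand was present for 25 of the 34 collagen genes with a sequence in the table and for 40.4% of all 27025 genes there. The motif was chosen after these sequences had been read, so the shares are a description. GGGCGG on either strand was present for 20 of the 34 (35.4% of all genes), CCAAT for 12 (37.5%) and TATAAA for 5 (14.3%). All were read on both strands, and matches of different motifs can overlap at their ends. CCTCCC was present for 6 of 8 fibrillar and 3 of 6 type VI genes, the latter Col6a1, Col6a2 and Col6a3.

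The other type VI genes, Col6a4, Col6a5 and Col6a6, encode further long chains. Col6a4 read 9.34, 9.21, 9.79 and 10.48 in sham and 9.46, 11.18, 10.36 and 9.17 in exposed mice, and was named after its values were seen. It was highest in exposed mouse 2 and sham mouse 4, both of them low for Col1a1 and Col15a1, and lowest in exposed mouse 4. The difference was 0.34 ± 0.42 (SE). Differences were -0.13 ± 0.11 for Col6a5 and -0.0084 ± 0.24 for Col6a6, with Col6a5 dim in every mouse (5.15 to 5.62). Exposed mouse 4 had the lowest value for 5 of the 6 type VI genes, against 20.9% of all genes.

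**Figure D3:**
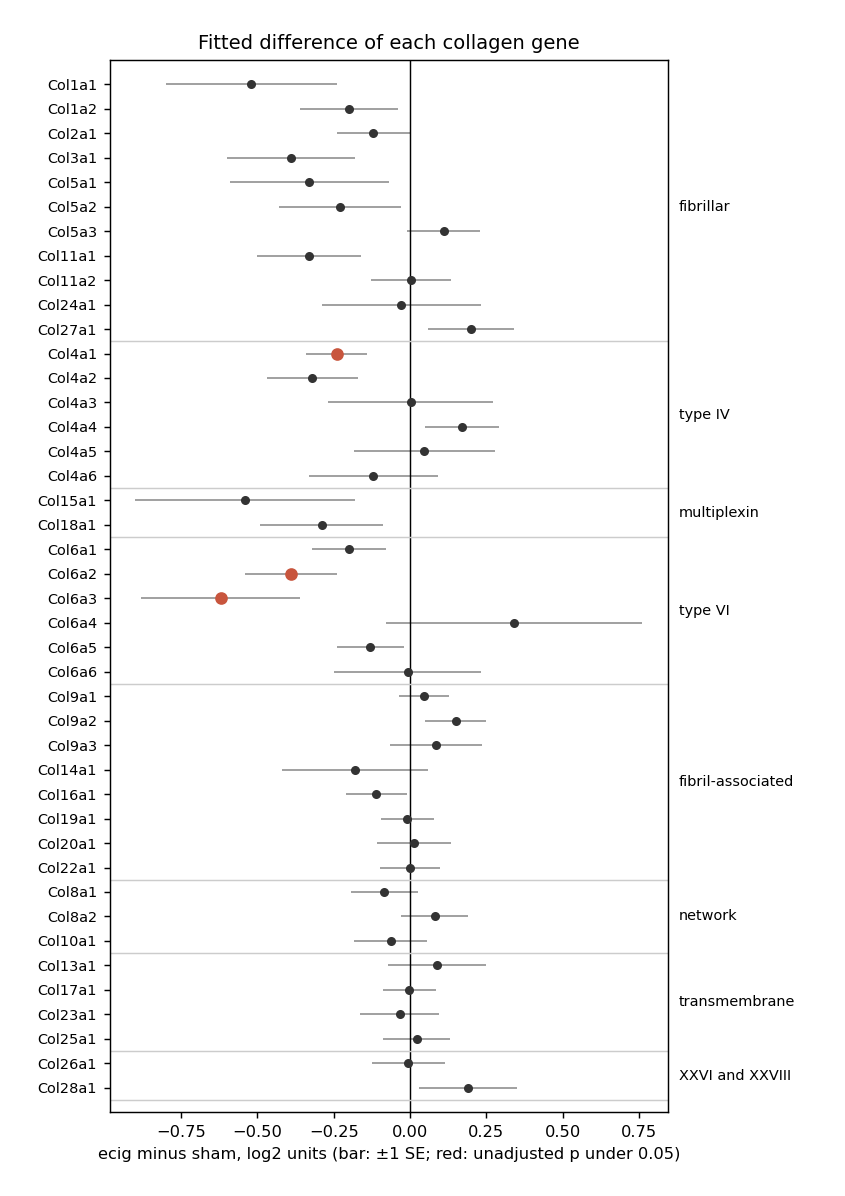
Exposed minus sham difference of each of the 42 collagen genes in log2 units with bars of ±1 SE from limma, grouped by class. Red points are Col4a1, Col6a2 and Col6a3, the 3 genes with an unadjusted p under 0.05. The largest size is -0.62 for Col6a3, and the points of the fibril-associated, network and transmembrane classes lie between -0.18 and 0.15.

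Fibril-associated collagens sit on the surface of other fibrils. Of 8 measured, 4 had lower and 4 higher means, with differences from -0.18 to 0.15 and a median of 0.0058. Col9a2, a chain of cartilage-type fibrils, read 6.66, 6.69, 6.62 and 6.81 in sham and 6.67, 7.04, 6.74 and 6.94 in exposed mice. Its groups overlapped, with exposed mice 2 and 4 highest (difference 0.15 ± 0.10, SE, and 0.011 without both). Col16a1 read 9.0, 8.78, 9.22 and 9.03 in sham and 8.83, 8.92, 8.93 and 8.92 in exposed mice. All exposed values lay inside the sham range (difference -0.11 ± 0.10, SE, -0.18 without sham mouse 2 and -0.04 without sham mouse 3). Col14a1, which binds fibrils of type I, was named after its values were seen, at 7.64, 7.53, 7.45 and 6.67 in sham and 7.36, 6.56, 7.34 and 7.30 in exposed mice. One mouse of each group was low, sham mouse 4 and exposed mouse 2, and the difference was -0.18 ± 0.24 (SE). The other 5 were Col9a1, Col9a3, Col19a1, Col20a1 and Col22a1, with differences from -0.0092 to 0.085.

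The network-forming collagens of type VIII, found around vessels, and type X differed little. Col8a1 read 6.46, 6.41, 6.82 and 6.42 in sham and 6.39, 6.40, 6.53 and 6.46 in exposed mice. Sham mouse 3 was high, and without it the difference of -0.084 ± 0.11 (SE) became 0.013. Col8a2 read 8.38, 8.30, 8.47 and 8.31 in sham and 8.29, 8.61, 8.29 and 8.60 in exposed mice. Exposed mice 2 and 4 were the highest pair, and the difference was 0.081 ± 0.11 with all mice and -0.078 without them. Col10a1, the collagen of hypertrophic cartilage, was dim (4.69 ± 0.23 and 4.62 ± 0.083).

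Transmembrane collagens are anchored in the cell membrane. Col13a1 read 7.93, 7.90, 8.20 and 8.08 in sham and 7.86, 8.20, 7.87 and 8.54 in exposed mice. Exposed mouse 4 was highest, and the difference of 0.088 ± 0.16 (SE) was -0.054 without that mouse and -0.17 without exposed mice 2 and 4. Col23a1 read 7.37, 7.21, 7.73 and 7.34 in sham and 7.25, 7.60, 7.29 and 7.38 in exposed mice. The groups overlapped across nearly their whole range (difference -0.034 ± 0.13, SE, and 0.073 without sham mouse 3). Col17a1, a hemidesmosome protein of stratified epithelia, was dim (5.19 ± 0.065 and 5.18 ± 0.10), and Col25a1 differed by 0.022 ± 0.11.

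A further pair of genes falls outside these classes. Col26a1 read 6.78, 6.91, 7.02 and 6.51 in sham and 6.94, 6.80, 6.79 and 6.67 in exposed mice, with the exposed mice inside the sham range. Col28a1, a collagen found beside Schwann cells, read 7.96, 7.88, 7.94 and 8.0 in sham and 7.67, 8.33, 8.0 and 8.53 in exposed mice. Exposed mice 4 and 2 were highest and exposed mouse 1 lowest. The difference was 0.19 ± 0.16 (SE), and -0.11 without exposed mice 2 and 4.

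Over the whole family, exposed mouse 2 had the lowest value for 14 genes (33.3%, against 13.5% of all genes), sham mouse 2 for 9 (21.4%, against 11.6%), exposed mouse 1 for 8 (19%, against 13.9%) and exposed mouse 4 for 5 (11.9%, against 20.9%). The 14 comprise Col1a1, Col1a2, Col3a1, Col5a1, Col5a2, Col11a1, Col4a1, Col4a2, Col14a1, Col15a1 and Col18a1 together with Col2a1, Col4a6 and Col24a1. Of the 8 lowest in exposed mouse 1, 7 belong to the fibril-associated, network and transmembrane classes or are Col28a1, and the other is Col11a2. The spread between mice had a median SD of 0.174 in sham and 0.276 in exposed mice over the 42 genes, against 0.134 and 0.176 over all genes. The SD was larger in exposed mice for 10 of 11 fibrillar genes, 7 of 8 of type IV and the basement membrane zone and 13 of the other 23, against 66% of all genes.

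Col1a1 with Col3a1, the main chains of types I and III, and 6 pairs that share a protein or a chromosomal neighbourhood were compared over the 8 mice, 7 pairs in all, as Pearson r and Spearman rho with exact two-sided permutation p adjusted over the pairs. Col1a1 and Col1a2, whose products join in 1 protein but which lie on chromosomes 11 and 6, had r = 0.99 (adjusted exact permutation p = 0.00376) and rho = 0.88 (0.0253). Without exposed mice 2 and 4, the farthest from the median of Col1a1, r was 0.90. Col1a1 and Col3a1 had r = 0.94 (adjusted exact permutation p = 0.00743) and rho = 0.76 (0.0515), but r = 0.46 without those 2 mice. Leaving out the farthest mice narrows the range of values, so the lower r does not settle how far the relation rests on them. The neighbours Col3a1 and Col5a2 on chromosome 1 had r = 0.94 (adjusted exact permutation p = 0.00743) and rho = 0.81 (0.0489), and r = 0.71 without the same mice.

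Col4a1 and Col4a2 had r = 0.87 (adjusted exact permutation p = 0.00376) and rho = 0.79 (0.0489), and r = 0.72 without sham mouse 1 and exposed mouse 2. Col6a1 and Col6a2, neighbours on chromosome 10, had r = 0.96 (adjusted exact permutation p = 0.00376) and rho = 0.95 (0.00799), and r = 0.60 without exposed mice 2 and 4. The other head-to-head pairs did not pass, with r = 0.58 and rho = 0.52 for Col4a5 and Col4a6 (adjusted exact permutation p = 0.156 and 0.229) and r = -0.20 and rho = -0.17 for Col4a3 and Col4a4 (0.64 and 0.703). Without the 2 farthest mice, r was 0.47 and 0.25 for these pairs. Taken as deviations from group means, r was 0.99, 0.92, 0.95, 0.78, -0.24, 0.60 and 0.95 for the 7 pairs, in the order Col1a1 with Col1a2, Col1a1 with Col3a1, Col3a1 with Col5a2, Col4a1 with Col4a2, Col4a3 with Col4a4, Col4a5 with Col4a6 and Col6a1 with Col6a2. All pairs share the same 8 arrays.

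**Figure D4:**
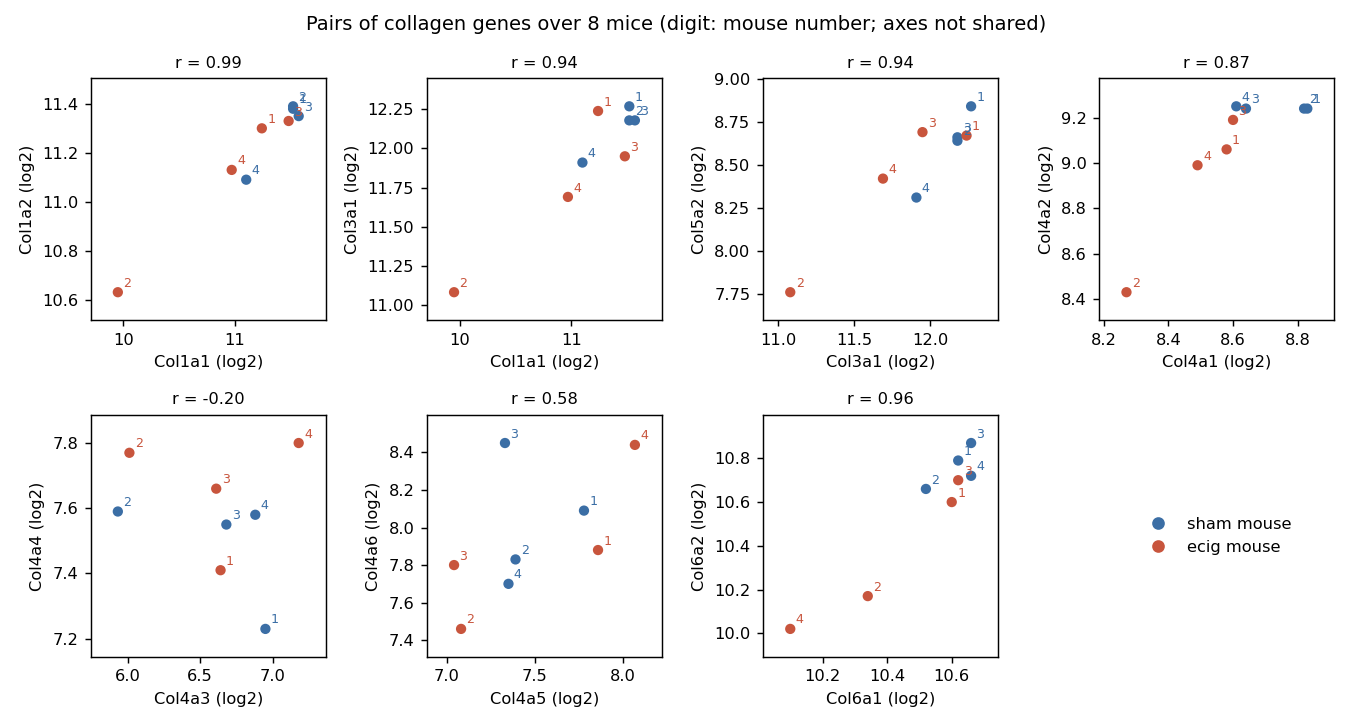
Log2 expression of 7 pairs of collagen genes in the 8 mice, sham in blue and ecig in red, with the mouse number beside each point and Pearson r above each panel. In the panels of Col1a1 with Col1a2 and with Col3a1, mouse ecig 2 lies far from the others, and Col4a3 with Col4a4 shows no common order.

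Genes that make, bind or remove collagen were counted from 6 lists, and 0 of their members passed limma's adjusted test. Of 27 measured synthesis and cross-linking genes, 16 had lower means (median difference -0.11). At an unadjusted p under 0.05, 2 of them were lower (7.41%, against 2.58% of all genes) and 1 was higher (background 2.98%). Adamts14, a procollagen N-proteinase, read 7.67, 7.74, 8.02 and 7.83 in sham and 7.50, 7.33, 7.50 and 7.50 in exposed mice, without overlap (difference -0.36 ± 0.099, SE, limma unadjusted p = 0.00477, adjusted p = 0.838). Loxl1, a cross-linking oxidase, differed by -0.72 ± 0.29 with exposed mice 2 and 4 low (6.98 and 7.16, the other 6 from 8.15 to 8.54), also the lowest pair for Col6a3. It differed by -0.11 without them. Pcolce2, an enhancer of C-propeptide removal, differed by 0.41 ± 0.18, and by 0.11 without the same mice.

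Of 8 collagen receptors, 2 had lower means, and Itga2, the α2 integrin chain, had the smallest p (-0.29 ± 0.13, SE, and -0.089 without exposed mice 2 and 4). The other, Itgb1, was the only one without overlap (12.5%, against 1.38% of all genes), at 11.49 to 11.62 in sham and 11.37 to 11.48 in exposed mice. It differed by -0.13 ± 0.078 (SE, limma unadjusted p = 0.138), and by -0.16 without exposed mice 2 and 4. Of 13 genes of collagen breakdown, 9 had lower means with 0 at an unadjusted p under 0.05 (limma), and Mmp9, a gelatinase, differed by -0.24 ± 0.13, and by -0.15 without sham mouse 4. Of 17 fibril partners, 7 had lower means. Ogn, a small proteoglycan, was the only one of the 17 at an unadjusted p under 0.05 in limma and was higher (background 2.98%). Its difference was 0.34 ± 0.15 (SE), and 0.13 without exposed mice 2 and 4. Tnc, a glycoprotein of remodelling matrix, differed by -0.71 ± 0.36, and by -0.32 without sham mouse 4, which read 9.77 against 8.02 to 8.51 in the other sham mice. Of 15 basement membrane partners, 10 had lower means with 0 at an unadjusted p under 0.05 (limma), and Lamc1, the laminin γ1 chain, differed by -0.26 ± 0.16, and by -0.097 without exposed mice 2 and 4. Of 15 genes of the control of TGF-β, a signal that drives collagen transcription, 12 had higher means. The list holds inhibitors of the pathway as well, so this count gives no direction of its signalling. Smad2, a signal transducer of that pathway, was lower (-0.23 ± 0.094, SE, limma unadjusted p = 0.0345). It was the only gene of that list at an unadjusted p under 0.05 (6.67%, against 2.58% of all genes). Median differences of these 5 lists were 0.033, -0.083, 0.027, -0.064 and 0.068, in the order given.

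Markers of cell types were read beside the collagen values. Smooth muscle markers had lower means for 11 of 11 genes (median difference -0.14). At an unadjusted p under 0.05 in limma, 2 were lower (18.2%, against 2.58% of all genes), Synpo2 (-0.30 ± 0.10, SE) and Synm (-0.40 ± 0.15). Without exposed mice 2 and 4 these differences were -0.16 and -0.30. The mean level of the 11 markers ran from 10.71 to 11.06 in sham and from 10.42 to 10.91 in exposed mice. Relative to the sham mean, the median marker stood at -0.17 for sham mouse 4, -0.49 for exposed mouse 2 and -0.23 for exposed mouse 4, and the median fibrillar collagen gene was -0.21, -0.68 and -0.17 in these mice. The part of the smooth muscle markers in the collagen values was not tested.

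Stroma markers had lower means for 3 of 8 genes, with mean levels from 10.47 to 10.60 in sham and from 10.45 to 10.55 in exposed mice. Dcn, the decorin gene of fibroblasts, read 13.07 and 12.96 in exposed mice 2 and 4, above every sham mouse (12.48 to 12.91), a difference of 0.18 ± 0.12 (SE). Hoxa11, a regulator of uterine stroma, differed by -0.18 ± 0.13, and Thy1 by -0.19 ± 0.16. For Hoxa11, exposed mice 2, 3 and 4 (8.76, 8.87 and 9.14) lay below every sham mouse (9.15 to 9.28), and exposed mouse 1 (9.36) lay above them. Proliferation genes had lower means for 9 of 9 (median difference -0.38), with 0 at an unadjusted p under 0.05 in limma. Relative to sham their median stood at -0.71 and -1.03 for exposed mice 2 and 4, the lowest pair for Col6a1, Col6a2 and Col6a3. It was 0.38 for exposed mouse 1, above every sham mouse, and -0.079 for exposed mouse 3. The 3 of smallest p, E2f1, Ccne2 and Mcm2, differed by -0.44, -0.63 and -0.28. Without exposed mice 2 and 4 they differed by 0.019, 0.06 and -0.062. Epithelial markers had lower means for 6 of 9 genes, with mean levels from 8.69 to 9.10 in sham and from 8.39 to 8.78 in exposed mice, lowest in exposed mouse 4. Of these, 3 of 9 were lower at an unadjusted p under 0.05 in limma (33.3%, against 2.58% of all genes), Cldn7 without overlap (-0.49 ± 0.13, SE), Cldn4 (-0.58 ± 0.20) and Krt8 (-0.39 ± 0.17). Without exposed mice 2 and 4 these differences were -0.29, -0.23 and -0.38, and Krt8 was at -0.26 without sham mouse 4. Fat cell markers had higher means for 6 of 7 (mean levels 5.28 to 5.81 and 5.12 to 6.98), highest in exposed mice 1 and 2. Endothelial markers had higher means for 9 of 9 (8.50 to 9.07 and 8.76 to 9.13). Lower means were counted for 6 of 8 macrophage, 2 of 6 pericyte, 2 of 5 mesothelial, 1 of 4 Schwann cell and 4 of 8 cartilage and bone markers. In limma 1 fat cell marker, Cidec (0.66 ± 0.24, SE), and 1 macrophage marker, Cd163 (0.23 ± 0.09), were higher at an unadjusted p under 0.05 (background 2.98%). Among pericyte markers 1 was lower, Notch3 (-0.38 ± 0.17), or 16.7% against 2.58% of all genes. Without exposed mice 2 and 4 these differences were 0.57, 0.20 and -0.13. The parts of these cell types in the collagen values were not tested.

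**Figure D5:**
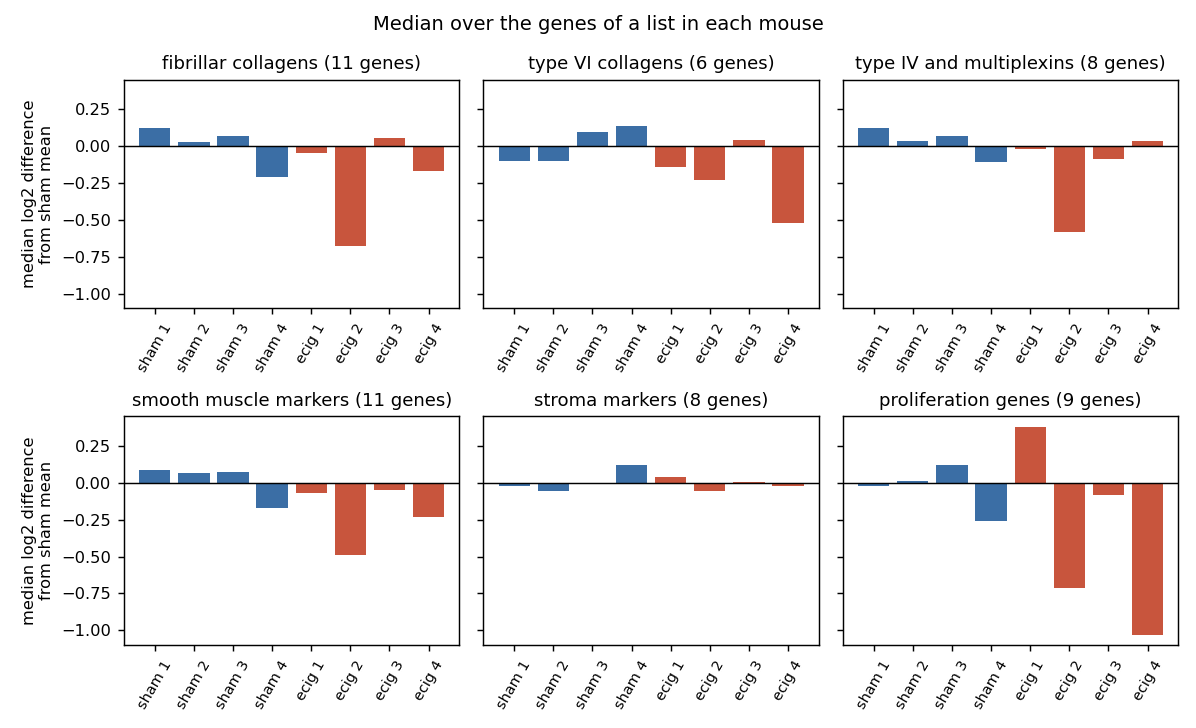
Median difference from the sham mean over the genes of 6 lists in each mouse, in log2 units, with sham bars in blue and ecig bars in red. Bars of fibrillar collagens and smooth muscle markers are lowest in ecig 2 (-0.68 and -0.49), those of type VI collagens and proliferation genes lowest in ecig 4 (-0.52 and -1.03), and stroma markers stay between -0.055 and 0.12.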

How the data were processed

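Each of 8 mice gave 1 array of biotin-labelled uterine RNA. The deposited table holds log2 values for 22206 probe sets, a scale inferred from the values themselves. The submitters' processing notes name Partek, with no version. How background, summarisation and scaling were handled, and the genome build, is not stated in these sources. Sorted values of the arrays differed by at most 0.0198, so no normalization was added, and a shift common to all genes cannot be seen. Signal over background and scan batches were not assessed.

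Of the probe sets, 19572 carried 1 symbol, 0 several and 2634 none. For 55 symbols with several, the probe set of highest mean was kept. Col7a1 and Col12a1 are not analysed here.

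Exposed minus sham came from limma 3.58.1 (R 4.3.3; lmFit and eBayes without covariates), checked on simulated data. p-values were adjusted by Benjamini-Hochberg across the array. Folds are the unlogged differences, without sign. The members, lists and tests were chosen with earlier results of these data known. Values of every mouse were to be given for genes at an unadjusted p under 0.05, genes without overlap, the 2 of smallest p in each of 8 classes and 12 fixed genes, and from other lists up to 3 genes of smallest p. Pairs were tested with scipy 1.17.1. Alternatives comprised scaling, filters at percentiles 25 and 50 of mean expression (passed by 39 and 29 of the 42 genes), moderation, array weights, the replicate block, probe set averaging, and leaving out mice. For genes outside the family, leaving out mice was added after their values were seen.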

Additional observations from a re-analysis of the deposited data

Results flagged for a closer look

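Each of the 42 collagen genes was examined in both groups for 1 mouse lying far from the other 3 (Dixon's test), which gave 13 such cases in 84 groups. Chance gives about 1 in 20 groups, and the genes are not independent of each other. Sham mouse 4 accounts for 5 cases, all of them low: Col1a1 (11.10, others 11.52 to 11.57), Col1a2 (11.09, others 11.35 to 11.39), Col15a1 (8.56, others 9.87 to 9.93), Col18a1 (9.68, others 10.09 to 10.16) and Col17a1 (5.09, others 5.21 to 5.22). Sham mouse 1 was low for Col4a4 (7.23, others 7.55 to 7.59) and Col11a2 (7.98, others 8.29 to 8.31) and high for Col4a5 (7.78, others 7.33 to 7.39). Sham mouse 3 was high for Col8a1 (6.82, others 6.41 to 6.46).

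Among exposed mice, mouse 2 was low for Col14a1 (6.56, others 7.30 to 7.36) and high for Col27a1 (7.83, others 7.24 to 7.32). Exposed mouse 4 was low for Col6a6 (6.36, others 6.96 to 7.06), and exposed mouse 1 for Col16a1 (8.83, others 8.92 to 8.93).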

How the results depend on the processing

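Over 17 alternatives, 0 of 21 named genes passed limma's adjusted threshold, and 338 of 353 differences kept their direction. Scaling, filters, moderation, the replicate block and probe set averaging left the differences as they were, so no sign could turn there. The 15 that turned all came from leaving out mice. When single mice were left out, the count of genes lower at an unadjusted p ran from 0 to 6 (backgrounds of 1.47% to 6.32% of all genes). The count higher ran from 0 to 1. The 1 came without exposed mouse 1, where 1072 of all 19505 genes were higher. The median over all genes of the family ran from -0.12 to 0.01. The count without overlap ran from 2 (backgrounds of 4.64% to 5.3% of all genes) to 7 without sham mouse 4 (6.14%). It was 6 without sham mouse 2 (4.57%) and 4 without exposed mouse 1 (10.5%). Ranges through 0 were 0.013 to -0.12 for Col8a1, -0.054 to 0.18 for Col13a1, -0.11 to 0.073 for Col23a1 and -0.10 to 0.067 for Col26a1. Without exposed mice 2 and 4, 0 genes were lower at an unadjusted p (1.83% of all genes) and 5 did not overlap (12% of all genes). The sign then turned for Col1a2 (0.013), Col5a1 (0.10), Col5a2 (0.068), Col8a2 (-0.078), Col13a1 (-0.17), Col18a1 (0.064), Col26a1 (0.061) and Col28a1 (-0.11). With the filter at percentile 50, 17 of the 29 genes left had lower means (median -0.11), as fewer genes were tested. For Col4a3 and Col4a4, r was 0.25 without the 2 farthest mice. The labels give same-numbered mice only a shared number. Correlations of their deviations from group means were 0.08, -0.238, 0.085 and 0.075, and a shared batch was not assessed. With the replicate block 2 of the 42 genes were lower at an unadjusted p (background of 2.81% of all genes).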
